A study of Mus musculus with 4 samples.

Results

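Interferon-induced genes, with the IRF and STAT transcription factors that control them, were followed in mouse embryonic fibroblasts of the 4F2A line on day 2 of their reprogramming. Members were the rows of the deposited TPM table whose symbols begin with Irf, Isg, Gbp or Stat followed by a digit, or with Ifi or Oas, together with Parp9 to Parp14. This rule took 83 of 32230 symbols. It also took some genes that are no interferon response genes in the strict sense, such as Stat5b, the ribosomal RNA nuclease gene Isg20l2 and the IRF2-binding proteins Irf2bp1, Irf2bp2 and Irf2bpl. TPM divides the reads of a gene by its length and scales every library to the same total, so levels of different genes can be compared per length.

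4F2A fibroblasts carry a doxycycline-inducible cassette of Oct4, Sox2, Klf4 and Myc, and were taken from male, homozygous, mid-gestation embryos. All libraries came from cells kept 48 h with doxycycline at 2 µg/mL, in medium with LIF and serum replacement. The 2 groups differed in what was added for the first 1 h: DMSO, the vehicle, or CX-5461, an inhibitor of RNA polymerase I. Each group had 2 libraries, numbered 2 and 3, which the labels call parallel replicates without saying whether they were cultured apart. The p-values therefore cover the spread among these 4 libraries, which may be technical. The labels name no interferon treatment in either group, and there was no group without doxycycline, so what reprogramming itself did to these genes was not measured.

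Interferons signal through paired receptors to Janus kinases, which phosphorylate STAT factors. Type I interferons act through a complex that holds STAT2 and IRF9 and binds the interferon-stimulated response element, whereas interferon gamma acts through STAT pairs. The genes switched on encode antiviral effectors such as the RNA-binding IFIT proteins, the OAS enzymes, the GBP GTPases and the membrane-embedded IFITM proteins, and embryonic fibroblasts are a classical cell for the study of this response.

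Recovered reads numbered 36416658 to 39626341 per library. The 13 mitochondrially encoded genes took 15.3% of TPM in DMSO replicate 3 and 9.20% to 9.96% in the other libraries. All 10 fibroblast markers passed the filter of a mean of 1 TPM, with 6 lower and 0 higher after CX-5461 (summed 7237 to 9037 TPM with DMSO and 6284 to 6482 TPM with CX-5461). Of 12 macrophage markers, 10 passed the filter and 2 were higher, Lyz2 and Adgre1. Their summed level was 695 to 700.0 TPM with DMSO and 964 to 1094 TPM with CX-5461, and without Lyz2 172 to 187 and 189 to 239 TPM. The macrophage markers Aif1 and Ptprc stood at 0 and at 0.656 to 1.27 TPM. Of 7 endothelial markers 2 passed the filter, the receptor gene Kdr being higher and Tek lower, while Pecam1 and Cdh5 stayed under 0.33 TPM. None of 6 lymphoid markers reached the filter, 4 of them at 0 throughout. Of 6 keratinocyte markers 3 reached it and none passed the test. Macrophages express many interferon-induced genes, and the part of such cells in the results below was not tested. In bulk RNA, more cells of a type and more RNA per cell cannot be told apart.

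Setting CX-5461 against DMSO shows how the interferon-related genes stood on day 2 after the brief treatment. Of the 83 members, 57 passed the filter, and 6 of these were higher after CX-5461 at an adjusted p under 0.05 (limma on log2(TPM + 1), adjusted over all 14621 genes tested): Parp10, Ifi35, Ifitm3, Ifitm10, Ifitm1 and Stat2. These 6 make 10.5% of the tested members, against 11.6% of all genes tested that were higher. None was lower, against 8.21% of all genes. At an unadjusted p under 0.05 in the same fit, 13 of the 57 tested members were higher and 2 lower, Ifitm6 and Ifi209. Over all genes, 5236 of 14621 had an unadjusted p under 0.05, in either direction. That count was not split by direction, so the 13 against 2 has no like share beside it and is not read further. Limma's voom on recovered reads called 1 member lower, Ifi209 (14.0% of all genes), and 9 higher (16.4% of all genes). The median difference was 0.09 over the 57 members and 0.07 over all genes tested, on the log2 scale, and the median absolute difference 0.29 and 0.25. Over all genes, higher and lower calls were nearly even under median-of-ratios scaling (1652 and 1655), quantile normalization (1634 and 1650) and rescaling without mitochondrially encoded genes (1706 and 1617). Differences were modest in size: 718 of 14621 genes moved further than Parp10, the member that differed most.

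The 2 groups did not overlap for 37 of the 57 members. CX-5461 lay above DMSO in both libraries for 23 members (40.4%) and below for 14 (24.6%). Over all genes tested these shares were 38.2% and 26.3%. The other 20 members overlapped. With either CX-5461 library left out, when the spread rested on the DMSO pair, none of the 6 calls remained, and the count over all genes fell too, from 1694 higher and 1201 lower to 299 and 398 without replicate 2 and to 218 and 337 without replicate 3.

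**Figure D1:**
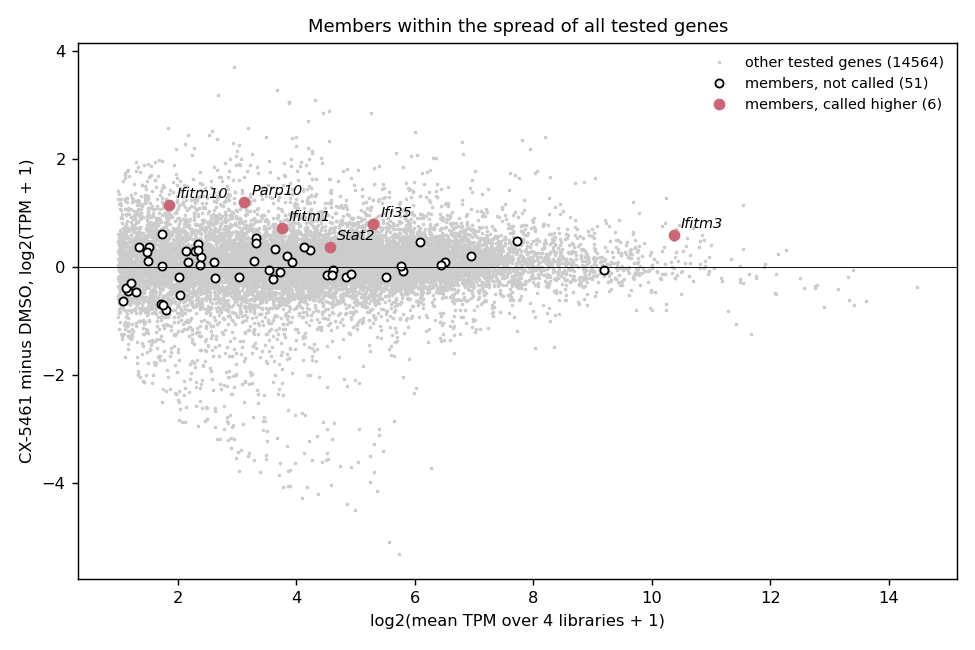
Difference between CX-5461 and DMSO on the log2(TPM + 1) scale (y axis) against the mean level over 4 libraries on a log2 scale (x axis), 1 point per tested gene. The 6 members called higher (red) and the 51 not called (open circles) lie within the cloud of the other tested genes (grey).

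Ligands came first in the pathway and were all but silent. Of 21 interferon genes in the table, 16 were at 0 TPM in every library, among them Ifnb1, the type I interferon that fibroblasts make first when infected, and Ifng. The highest was Ifnz, at 0.722 to 1.03 TPM. Receptors were present throughout. Ifngr2, the signalling chain of the interferon gamma receptor, stood at 48.2 and 50.4 TPM with DMSO and 67.8 and 67.9 TPM with CX-5461. This was the only receptor chain of the 6 tested that passed, with a log2 difference of 0.45 ± 0.08 (SE, adjusted p = 0.018). Ifngr1, its ligand-binding partner, stood at 46.3 and 38.4 against 52.4 and 52.8 TPM (0.31, adjusted p = 0.11). The type I receptor chains Ifnar1 (-0.14, adjusted p = 0.29) and Ifnar2 (0.21, adjusted p = 0.223) did not pass, nor did Ifnlr1 (-0.22) and Il10rb (-0.07). Of the Janus kinases, Jak2, which serves the interferon gamma receptor, fell: 34.2 and 32.8 TPM with DMSO and 24.4 and 24.8 TPM with CX-5461 (-0.43 ± 0.09, adjusted p = 0.0263). Jak1, the most abundant, missed the threshold at 134 and 131 against 142 and 151 TPM (adjusted p = 0.274), like Jak3 (0.38) and Tyk2 (-0.02). Il10rb and Tyk2 changed sign when libraries were left out, and the calls of Ifngr2 and Jak2 did not survive the loss of a library (highest adjusted p = 0.164 and 0.177).

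Of 7 STAT genes 6 were tested, and 1 passed. Stat2, the STAT of the type I response, lay at 19.7 and 19.9 TPM with DMSO and at 25.9 and 25.5 TPM with CX-5461, so the groups were apart and the libraries within each close. Its log2 difference was 0.36 ± 0.09 (adjusted p = 0.0477), the weakest of the 6 calls. The call ended under median-of-ratios scaling (0.30, adjusted p = 0.073), under 5 other settings and without any one of the libraries (adjusted p up to 0.239). Stat3, which relays signals of LIF and related cytokines, was at 85.2 and 83.6 against 88.0 and 85.5 TPM, and Stat6, the factor of interleukin-4 signalling, at 85.1 and 90.5 against 94.1 and 91.7 TPM. These 2 most abundant STAT genes had differences of 0.04 and 0.08, and that of Stat3 was below 0 under all 3 rescalings and that of Stat6 under quantile normalization. Stat5a and Stat5b, which act after growth hormone and related cytokines, overlapped between the groups (-0.05 and -0.06). Stat4, a factor of lymphoid cells, stayed under 0.25 TPM.

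No IRF gene passed the test, and 7 of the 9 were tested. Irf9, the DNA-binding subunit of the complex with STAT2, stood at 12.1 and 12.6 TPM with DMSO and 12.6 and 16.2 TPM with CX-5461 (0.20 ± 0.15, adjusted p = 0.388). CX-5461 replicate 2 lay barely above the DMSO libraries and replicate 3 clearly above them. Irf1, an early activator after interferon gamma, was at 10.7 and 9.36 against 12.2 and 13.53 TPM. Its groups were apart, with a difference of 0.33 ± 0.13 (adjusted p = 0.138). Irf3, the constitutive factor that turns on Ifnb1 after sensing of nucleic acids, was the most abundant IRF gene, at 31.6 and 27.7 against 25.9 and 26.1 TPM (-0.18 ± 0.10, adjusted p = 0.267). Its groups were apart. It shares 88 exon bases (2.56% of its exons) with Bcl2l12 on the other strand, which fell (-0.52, adjusted p = 0.0289). The part of this overlap in the Irf3 values was not tested. Irf7, which amplifies type I interferon once the response has begun, was at 2.95 and 5.06 against 4.14 and 4.98 TPM, and the spread of the DMSO pair covered both CX-5461 values. Irf2 (0.10), which competes with Irf1, and Irf5 (-0.09) did not pass. Irf5 shares 411 exon bases (14.1% of its exons) with Tnpo3 on the other strand, which did not pass either (-0.13, adjusted p = 0.379). Irf4 and Irf8, factors of lymphoid and myeloid cells, were below the filter at 0 to 0.198 TPM and 0.552 to 1.10 TPM. The IRF2-binding proteins, corepressors found in most cells, did not pass either, with Irf2bpl at 121 and 107 against 128 and 133 TPM (adjusted p = 0.196). Irf2bp1, at 60.7 and 52.1 against 49.1 and 57.2 TPM, and Irf2bp2, at 60.4 and 46.3 against 53.7 and 53.2 TPM, overlapped between the groups.

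**Figure D2:**
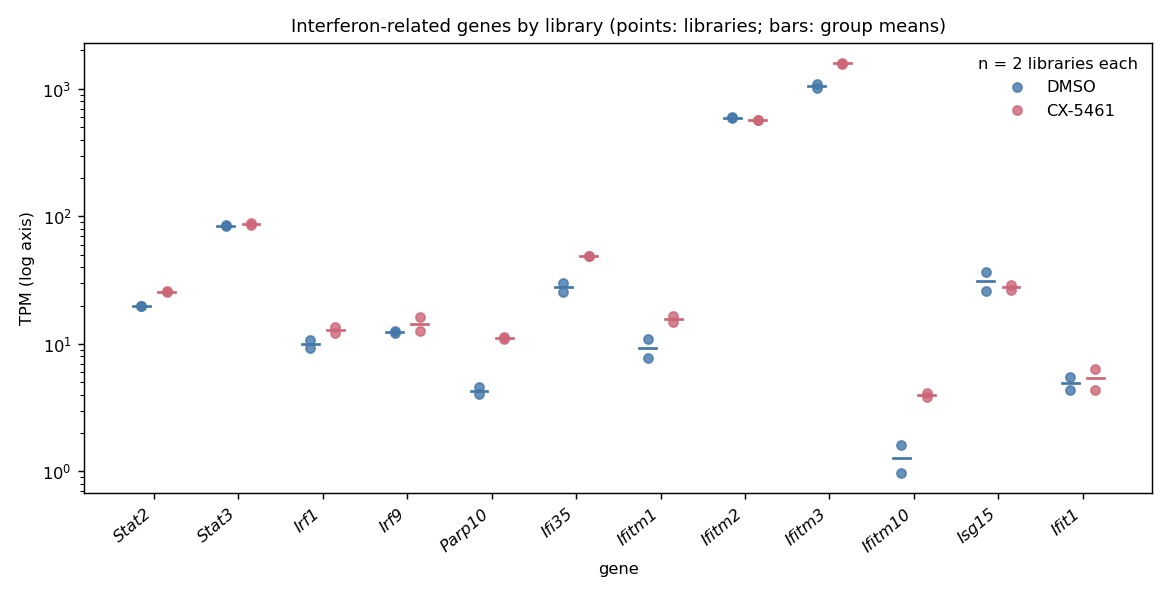
TPM on a log axis (y axis) for 12 genes (x axis), with DMSO libraries in blue and CX-5461 libraries in red, n = 2 each; points are libraries and bars group means. Parp10, Ifi35, Ifitm1, Ifitm3, Ifitm10 and Stat2 lie apart between the groups, whereas Isg15 and Ifit1 overlap.

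Among effectors, Parp10 moved furthest on the log2(TPM + 1) scale. It encodes a mono-ADP-ribosyltransferase (chromosome 15, 76231174 to 76243441, minus strand, mm10, ENSMUSG00000063268.12). Its level was 4.02 and 4.58 TPM with DMSO and 11.4 and 10.9 TPM with CX-5461, from about 177 and 226 against 500 and 468 reads. Both CX-5461 values were far above both DMSO values. The log2 difference was 1.20 ± 0.14 (adjusted p = 0.00464), and 1.12 to 1.27 with a library left out (highest adjusted p = 0.0562). Parp10 shares 205 exon bases (4.80% of its exons) with Plec on the same strand. Plec was at 373 to 413 TPM (0.03, adjusted p = 0.843), and its part in the Parp10 values was not tested. None of the other 4 PARP genes passed. Parp9 and Parp14, which act as a pair in macrophages, stood at 13.3 and 14.3 against 13.9 and 15.6 TPM and at 3.10 and 2.86 against 3.75 and 3.99 TPM. Parp11 was at 8.63 and 6.35 against 10.6 and 10.3 TPM, short of the threshold (0.44 ± 0.17, adjusted p = 0.123) but called higher in the voom fit, and Parp12 was at 22.9 and 23.4 against 19.7 and 21.9 TPM (-0.15). Zc3hav1, the antiviral zinc-finger protein also called PARP13, is not held by the rule and fell from 39.9 and 43.4 to 24.5 and 26.8 TPM (-0.68 ± 0.10, adjusted p = 0.00898).

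Ifi35, which encodes a small leucine zipper protein induced by interferon (chromosome 11, 101448407 to 101458698, plus strand, ENSMUSG00000010358.13), was at 25.7 and 30.1 TPM with DMSO and 48.6 and 49.2 TPM with CX-5461. The lower of the CX-5461 values was well above the higher DMSO value, and the difference was 0.79 ± 0.11 (adjusted p = 0.00694, and up to 0.0918 with a library left out). Gm11626, a gene model on the other strand, shares 290 of its exon bases. Nmi, its binding partner, was at 4.38 and 4.93 against 4.72 and 4.11 TPM and overlapped. Ifi30, a lysosomal thiol reductase of antigen processing, was at 199.9 and 153 against 246 and 244 TPM. The groups were apart, but DMSO replicate 3 lay well below replicate 2, and the difference of 0.48 ± 0.14 missed the threshold (adjusted p = 0.0602). It passed under all 3 rescalings, with a filter of 5 TPM and in the voom fit (adjusted p = 0.00822). Ifi27, a mitochondrial protein of the interferon response, was at 65.6 and 47.7 against 75.8 and 78.3 TPM (0.45 ± 0.16, adjusted p = 0.0996), and passed in the voom fit (adjusted p = 0.0332) and without DMSO replicate 2 (0.68, adjusted p = 0.0161). Its relative Ifi27l2a had the largest standard error of the tested members (0.78), at 1.05 and 7.10 against 3.37 and 0.857 TPM, from 4 to 38 reads.

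Of 7 IFITM genes 6 were tested, and 3 of these were higher. IFITM proteins sit in plasma and endosomal membranes and block the entry of enveloped viruses. 5 of the 7, Ifitm5, Ifitm2, Ifitm1, Ifitm3 and Ifitm6, lie in that order between 140948958 and 141017924 of chromosome 7. Ifitm3 (141009586 to 141010770, minus strand, ENSMUSG00000025492.6) was the most abundant of all 83 members. It stood at 1096 and 1012 TPM with DMSO and at 1590 and 1575 TPM with CX-5461. The difference was 0.59 ± 0.09 (adjusted p = 0.00897), and 0.53 to 0.64 with a library left out (highest adjusted p = 0.14). Ifitm2, its close paralog, was the next most abundant, at 598 and 591 against 571 and 570 TPM, the CX-5461 libraries slightly below the others (-0.06 ± 0.08, adjusted p = 0.612). Ifitm1, which lies between them (140967221 to 140969825, plus strand, ENSMUSG00000025491.14), was at 10.8 and 7.75 against 16.4 and 14.96 TPM. Its difference was 0.71 ± 0.18 (adjusted p = 0.0406), and the call ended without the filter, in the voom fit, without limma's trend and robust options and without DMSO replicate 3 (0.49, adjusted p = 0.0942). Ifitm6, a myeloid member, went from 3.44 and 2.96 to 1.40 and 1.75 TPM, from 32 and 31 to 13 and 16 reads, and did not pass (-0.71 ± 0.21, adjusted p = 0.0661), although it did, as lower, under median-of-ratios scaling and after rescaling without mitochondrially encoded genes. Ifitm5, the bone member, was at 0.848 to 2.29 TPM and overlapped.

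Ifitm10 lies apart from the others (chromosome 7, 142325837 to 142373753, minus strand, ENSMUSG00000045777.14). It is a distant member not known to answer to interferon, and it stood at 0.973 and 1.598 TPM with DMSO and 4.10 and 3.87 TPM with CX-5461, from about 48 and 88.5 against 202 and 187 reads. The difference was 1.14 ± 0.23 (adjusted p = 0.022), and the call ended without DMSO replicate 2 (0.94, adjusted p = 0.0584). Ifitm7 was at 0. Reads of paralogs alike in sequence may be split between Ifitm1, Ifitm2 and Ifitm3, so their separate levels are uncertain. Their read numbers came out partly as fractions, but so did those of many other genes, which cannot show such a split. Ifitm2 also shares 268 bases, 40.9% of its exons, with the gene model Gm45717 on the same strand. Ifitm2 and Ifitm3 together made 59.8% and 61.0% of the summed TPM of all members with DMSO and 64.0% and 63.3% with CX-5461, and the summed level was 2830 and 2628 against 3375 and 3386 TPM.

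None of the ISG15, ISG20 and IFIT genes passed. Isg15, the ubiquitin-like modifier that is among the strongest interferon targets, was at 36.4 and 25.8 TPM with DMSO and 28.8 and 26.7 TPM with CX-5461 (-0.14 ± 0.17, adjusted p = 0.597), with both CX-5461 values inside the DMSO range. Isg20, an RNA exonuclease, was at 4.39 and 1.88 against 1.36 and 1.55 TPM (adjusted p = 0.205). Isg20l2, which shares its name but serves ribosomal RNA, was at 45.8 TPM in the lower DMSO library and 43.8 TPM in the higher CX-5461 library (-0.19, adjusted p = 0.225), and both genes had their groups apart. Of 6 IFIT genes, whose proteins bind foreign RNA ends, 5 were tested and none passed. Ifit1 was at 4.32 and 5.54 against 4.37 and 6.35 TPM, Ifit2 at 26.5 and 22.5 against 21.9 and 22.2 TPM, and Ifit3 at 13.0 and 15.7 against 19.7 and 17.9 TPM (0.37, adjusted p = 0.106). The summed level of the IFIT genes was 50.3 and 50.2 against 53.2 and 53.1 TPM. Ifih1, the RNA sensor MDA5, was at 2.75 and 3.95 against 4.39 and 5.14 TPM (0.42, adjusted p = 0.21). Its groups were apart.

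OAS, GBP and IFI20X genes were low and none passed. OAS enzymes make the messenger that activates RNase L. Of 12 OAS genes 6 were tested, with a median of -0.29, and Oas1g, at 1.84 and 1.29 against 0.458 and 0.848 TPM, had the lowest value (-0.64 ± 0.28, adjusted p = 0.166). Oas1a was at 10.4 and 5.32 against 5.32 and 7.74 TPM, and the DMSO values enclosed both CX-5461 values. GBP proteins attack membranes around intracellular microbes. Of 11 GBP genes 4 were tested, and their differences ranged from 0.09 to 0.54 and stayed above 0 under all 3 rescalings. Gbp2 was at 7.46 and 6.84 against 12.1 and 9.60 TPM (0.54 ± 0.16, adjusted p = 0.0663), so its groups were apart. The IFI20X genes of chromosome 1 encode sensors and regulators with DNA-binding domains. All 5 tested of 11 had differences below 0, from -0.79 (Ifi209, at 4.31 and 2.56 against 1.90 and 1.17 TPM, adjusted p = 0.107) to -0.20 (Ifi207, adjusted p = 0.499). With a library left out, Oas1a, Oas1c, Oasl2, Gbp9, Ifi204 and Ifi211 changed sign. Genes of this cluster are alike in sequence, and reads may be shared among them. The 26 members under the filter included 9 at 0 in every library, and the highest value among them was 1.52 TPM (Ifi47).

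**Figure D3:**
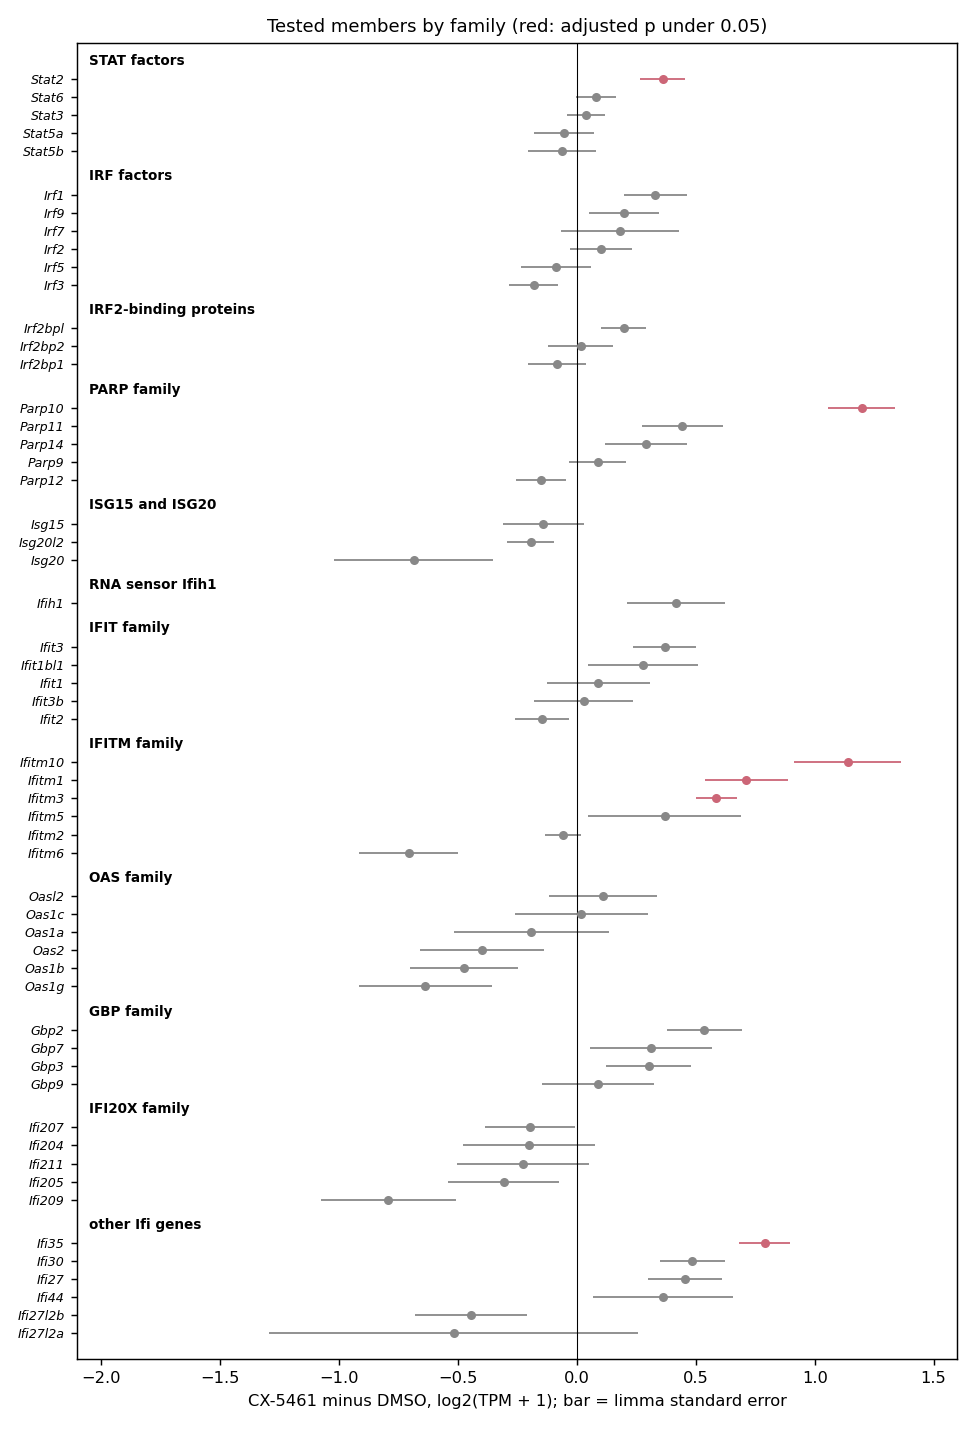
Log2 differences between CX-5461 and DMSO (x axis) for tested members (y axis), grouped by family, with the standard error from limma; red marks the 6 with an adjusted p under 0.05. Parp10 (1.20) and Ifitm10 (1.14) lie furthest to the right and Ifi209 (-0.79) furthest to the left.

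Other genes of the pathway moved in both directions. Of 79 tested, 14 were higher (17.7%, against 11.6% of all genes) and 7 lower (8.86%, against 8.21%), with a median of 0.07 as over all genes, and each call but that of Slfn9 ended with some library left out. The sensors and adaptors gave 2 higher and 2 lower of 15. Cgas, the enzyme that senses cytosolic DNA, fell from 4.78 and 4.401 to 1.83 and 1.14 TPM (-1.18 ± 0.22, adjusted p = 0.0182). Sting1, the adaptor that receives its messenger, fell from 42.1 and 44.7 to 28.2 and 23.3 TPM (-0.74 ± 0.12, adjusted p = 0.0121). Both CX-5461 values lay below both DMSO values for each. Ikbke, a kinase that activates IRF factors, rose from 8.37 and 7.90 to 14.6 and 15.3 TPM (0.80 ± 0.12, adjusted p = 0.00907), and Myd88, the adaptor of Toll-like receptors, from 39.9 and 35.9 to 52.7 and 52.1 TPM (0.46). The RNA sensor Rigi and its adaptor Mavs did not pass, at 18.9 and 21.6 against 21.2 and 19.9 TPM and at 68.0 and 66.4 against 62.9 and 58.1 TPM.

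Of 18 negative regulators and genes of ISG15 conjugation, 3 were higher and 2 lower. Usp18, which removes ISG15 and blocks the type I receptor, rose from 2.63 and 2.88 to 6.02 and 7.53 TPM (1.04 ± 0.18, adjusted p = 0.014). Socs3, a feedback inhibitor of cytokine receptors, rose from 30.9 and 30.8 to 51.5 and 59.0 TPM (0.82 ± 0.10, adjusted p = 0.00535), and Pias1, an inhibitor of STAT factors, from 24.9 and 26.2 to 33.3 and 33.0 TPM (0.36). Samhd1, which degrades deoxynucleotides and restricts retroviruses, fell from 31.1 and 29.7 to 18.9 and 17.9 TPM (-0.69 ± 0.10, adjusted p = 0.00763). Ube2l6, the conjugating enzyme for ISG15, fell from 22.9 and 20.1 to 14.6 and 13.6 TPM (-0.57 ± 0.12, adjusted p = 0.0242). Uba7, the activating enzyme for ISG15 (-0.04, adjusted p = 0.939), and Herc6, its ligase in the mouse (-0.60, adjusted p = 0.234), did not pass.

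Of 36 tested among other interferon-stimulated genes, 8 were higher and 2 lower. The immunity-related GTPases Igtp and Irgm1, effectors of interferon gamma against vacuolar pathogens, rose from 4.402 and 4.94 to 8.34 and 9.66 TPM (0.82 ± 0.15, adjusted p = 0.0189) and from 12.9 and 14.0 to 20.3 and 23.5 TPM (0.66 ± 0.12, adjusted p = 0.018). Igtp overlaps in position with Irgm2 on the same strand, which did not pass (0.32, adjusted p = 0.242), and the part of shared reads was not tested. Tdrd7, an inhibitor of virus-induced autophagy, rose from 30.4 and 27.1 to 42.7 and 43.7 TPM (0.57 ± 0.10, adjusted p = 0.0145), and Pml, the scaffold of PML bodies, from 83.5 and 89.3 to 114 and 125 TPM (0.47 ± 0.09, adjusted p = 0.022). Nlrc5 (0.89), Bst2 (0.47), Rnf213 (0.35) and Shisa5 (0.34) were the other rises. Slfn9, a Schlafen gene, fell most, from 11.6 and 11.8 to 0.768 and 0.665 TPM (-2.89 ± 0.17, adjusted p = 0.000586), and still passed without each library in turn (highest adjusted p = 0.0168). The antiviral genes Mx1, Rsad2 and Cxcl10 were under 1 TPM in all libraries.

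**Figure D4:**
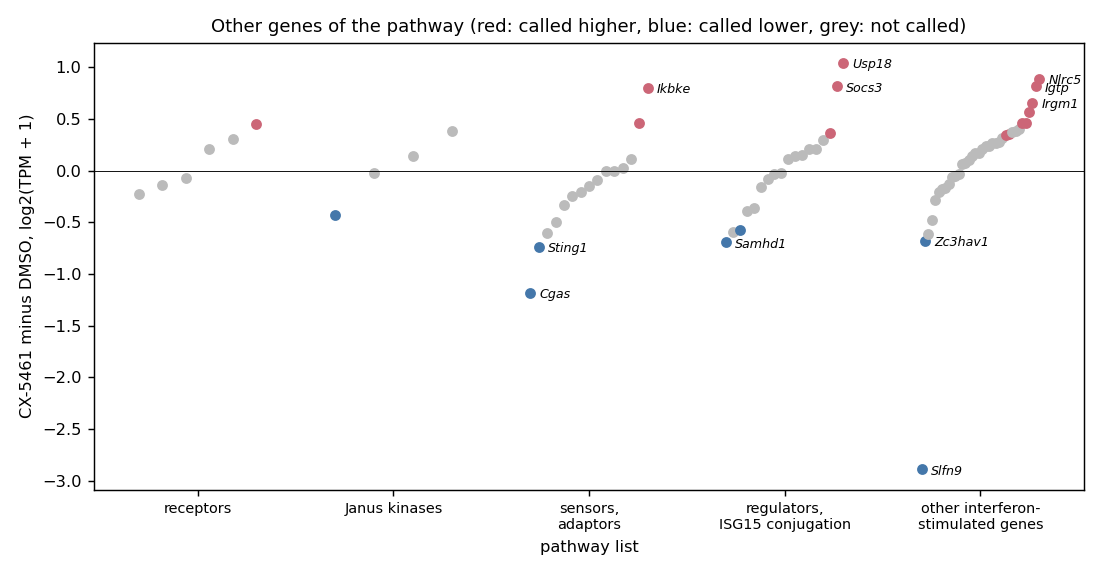
Log2 differences between CX-5461 and DMSO (y axis) for 79 tested genes in 5 pathway lists (x axis), 1 point per gene in order of difference. The points run from Slfn9 (-2.89) to Usp18 (1.04), with 14 called higher in red, 7 called lower in blue and the rest in grey.

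Promoters of the members carry the response element more often than those of other genes, among members that passed and members that did not. RefSeq windows (GRCm38.p6, from 250 bases before to 50 after the start) were at hand for 64 members. Of these, 30 (46.9%) held GAAA-NN-GAAA, the core of the interferon-stimulated response element, on either strand, against 3.44% of all 32851 windows and 3.99% of 27025 genes. The STAT site TTCNNNGAA, which reads alike on both strands, was in 14 (21.9%), against 9.55% of genes. Among tested members with a window, the response element was in 2 of 5 that were higher and in 18 of 40 that did not pass. Tested members with it had a median difference of 0.10 (20 genes) and those without it of 0.04 (25 genes). Some members are paralogs with alike sequence around the match, such as Ifit3 and Ifit3b, or Oas1a and Oas1g. Matches among members are therefore not independent. A match describes letters only, and binding was not measured.

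The stretches below show the element in capitals. They come from a gene that was higher (Stat2, chr10:128270251-128270310) and from a paralog of Ifitm3 that did not pass (Ifitm2, chr7:140955973-140956032). Isg15 (chr4:156200862-156200921) and Ifit1 (chr19:34640760-34640819) are classical targets whose groups overlapped. Each stretch is 60 bases around the first match, upstream of the start, read 5′ to 3′ on the strand of the gene. That match began 222 bases before the start in Stat2, 104 in Ifit1, 78 in Isg15 and 46 in Ifitm2. Stat2 and Ifit1 are on the plus strand and the others on the minus strand.
Stat2: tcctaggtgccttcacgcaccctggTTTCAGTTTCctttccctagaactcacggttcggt
Ifitm2: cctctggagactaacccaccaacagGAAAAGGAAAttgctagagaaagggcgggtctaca
Isg15: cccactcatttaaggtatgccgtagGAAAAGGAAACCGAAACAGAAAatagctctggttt
Ifit1: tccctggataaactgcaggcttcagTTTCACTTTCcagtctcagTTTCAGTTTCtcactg
Ifitm3, which was higher, held 2 matches just after its RefSeq start (chr7:141010716-141010742, bases 3 to 29), shown as the site alone.
Ifitm3: GAAAAGGAAActtctgaGAAACCGAAA
Isg15 holds 3 overlapping matches and Ifit1 holds 2, and neither passed the test. Ifitm3 also holds 2 and was higher. Of the genes shown with 1 match, Stat2 was higher and Ifitm2 did not pass. Of the genes that were higher, Ifi35, Ifitm1 and Ifitm10 had no match in their windows, and Parp10 was not in the table of windows. Isg15, Ifit1 and Ifitm2 were chosen for display after their values were seen.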

How the data were processed

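Poly(A) RNA of 4 libraries was sequenced as paired reads of 150 bases, per the labels. The authors deposited TPM values, with the same total in each column. The submitters' processing notes name build mm10. The aligner and counter, and the lengths behind TPM, are not given. TPM is relative to all other genes in a library. Columns were matched to samples by treatment and replicate number in the titles, and 0 columns were left unused.

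The filter kept 14621 genes averaging 1 TPM or more over the 4 libraries. Their log2(TPM + 1) values went into limma 3.58.1 under R 4.3.3 (trend and robust options, no covariate), with Benjamini-Hochberg adjustment over all of them and a threshold of 0.05. The fit had 2 residual and 3.75 prior degrees of freedom. An exact permutation test of 2 against 2 libraries cannot go below 0.333 and was not used. On simulated counts of 14498 genes, made after the CX-5461 and DMSO libraries, changes of 1.5-fold were found in 68.7%, of 2-fold in 94.0% and of 4-fold in 98.5%, and 38 of 212 calls were false, more than the threshold promises. Changes were planted only in genes averaging 5 TPM or more, and the spread was taken from genes with many reads. The shares found therefore do not cover the 24 tested members with a mean of 1 to 5 TPM. The members and lists were chosen with earlier results of these data known. Named genes were members that passed, tested STAT and IRF genes, the 12 most abundant members and the pathway genes that passed, up to 4 per list and direction with the smallest adjusted p, with receptors and Janus kinases in full; others were added after their values were seen, and some members that the rule names are not reported here.

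Multiplying TPM by exon length (GENCODE M21, mm10) and by a constant per library gave read numbers, matched for 30039 of 32230 symbols. Of values below 10000 reads, 69.4% to 69.6% came within 0.01 of an integer. Chi-square per degree of freedom between the libraries of a group was 30.6 for DMSO and 9.16 for CX-5461, so no library was a copy. Alternatives were pseudocounts of 0.1 and 5, no filter and 5 TPM, quantile normalization, median-of-ratios scaling, leaving mitochondrially encoded genes out of the total, limma without its options, a replicate block, each library left out and, added after the data were seen, voom on the recovered reads. Python 3.11.15, numpy 2.4.6, pandas 2.3.3 and matplotlib 3.10.9 were used.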

Additional observations from a re-analysis of the deposited data

How the results depend on the processing

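Calls rested on 2 libraries per group. The members called higher numbered 6, and 0 to 6 with 1 library left out (0 without either CX-5461 library, where only the DMSO pair gave the spread), and those lower 0. Lower members numbered 2 without limma's trend and robust options (Ifitm6, Oas1b) and 1 each under median-of-ratios scaling, rescaling without mitochondrially encoded genes (Ifitm6 in both) and voom (Ifi209). The median over members was 0.09, 0.05 to 0.11 with 1 library left out, 0.02 without the filter, 0.03 under median-of-ratios scaling and 0.04 after rescaling. Over all genes, 1694 were higher and 1201 lower, and higher genes numbered 1128 without limma's options and 1051 without the filter, lower ones 2010 in the voom fit. With 1 library left out, higher genes ran from 218 to 2067 and lower ones from 337 to 891. Pathway genes called higher were 14, but 7 without limma's options and 8 without the filter, and 0 to 12 with 1 library left out; those lower were 7, and 1 to 4 then. Of tested members, 17 changed sign with some library left out. The 6 calls could not, because both CX-5461 values lay above both DMSO values in each. Oas1c and Ifit3b turned under median-of-ratios scaling and rescaling. Among the named STAT, IRF and abundant genes, signs turned for Irf2bp2 under median-of-ratios scaling (-0.0487), quantile normalization (-0.0645), rescaling (-0.0394) and voom (-0.0192), for Stat3 under the first 3 of these (-0.0256, -0.0569 and -0.0162) and for Stat6 under quantile normalization (-0.0157). With 1 library left out they turned for Irf2bp1 (-0.19 to 0.0247), Irf2bp2 (-0.17 to 0.20), Irf5 (-0.24 to 0.0605), Irf7 (-0.13 to 0.49), Isg15 (-0.38 to 0.10), Stat5a (-0.12 to 0.0111) and Stat5b (-0.24 to 0.12). The cause was not tested. Deviations of same-numbered libraries correlated at 0.03 across genes, which cannot settle whether such libraries were handled together. With a replicate block, 6 members were higher, 5 of them shared with the fit without it, Stat2 (adjusted p = 0.0844) giving way to Ifi30 (0.0384), and 1589 genes were higher and 1100 lower. Some members rest on few reads, such as Ifi27l2a with 4 to 38 per library.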

Other observations

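The DMSO libraries differed from each other more often among members than among genes at large, mainly through members higher in replicate 3. Of the 57 tested members, 7 were over 1.5-fold higher in DMSO replicate 3 than in replicate 2 (12.3%, against 3.59% of all genes tested): Gbp7, Ifi211, Ifi27l2a, Ifi44, Ifitm10, Irf7 and Oas2. Another 5 were over 1.5-fold higher in replicate 2 (8.77%, against 7.65%). Between the CX-5461 libraries, 4 were that much higher in replicate 3 (7.02%, against 4.62%) and 2 in replicate 2 (3.51%, against 4.61%). Members are lower in level than many genes, and 24 of the 57 had a mean of 1 to 5 TPM. A mean of 5 TPM or more was reached by 33 members, against 11457 of the 14621 genes tested. DMSO replicate 3 also held the highest mitochondrially encoded share, 15.3%. The part of either in the difference was not tested.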
